A study of Homo sapiens with 20 samples.

Results

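Transcripts of 10 genes of the NF-κB response were followed in human pancreatic cells with and without *ALKBH5*: the CXC chemokines *CXCL1*, *CXCL2*, *CXCL3*, *CXCL5*, *CXCL6* and *CXCL8*, the CC chemokine *CCL2*, and the early response genes *NFKBIA*, *TNFAIP3* and *IER3*. They were taken by name, through the Ensembl identifier of each symbol. All 10 were found among the 60623 identifiers of the pancreatic progenitor (PP) files and the 60624 of the human islet-like organoid (hILO) files. RNA-seq was available for 20 libraries, 2 for each of 10 groups. The hILOs, made with media given up to day 22 of differentiation, were WT or A5-KO without further treatment (4 libraries). The paper's methods list a further hILO medium after that day, so the age of these hILOs is uncertain. The PPs, made with media given up to day 14, were WT or A5-KO cells that had received actinomycin D (Act D, 1 μg per ml), which blocks transcription, for 0, 1, 2 or 3 h (16 libraries). A5-KO cells carry indels in the first exon of *ALKBH5*, made with CRISPR-Cpf1 in a human embryonic stem cell line (MEL1) with a GFP reporter at the insulin locus, and both genotypes share this reporter. The knockout came from picked colonies, the labels do not say which of the knockout lines was sequenced, and a difference between genotypes therefore cannot be told apart from a difference between clones. Nothing in the labels states that replicates were separate differentiations, so the *p*-values measure the spread between these libraries only.

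NF-κB is a family of transcription factors held in the cytoplasm by IκB proteins until inflammatory signals lead to IκB degradation. It then drives a fast set of genes that includes ELR+ CXC chemokines, which attract neutrophils through the receptors CXCR1 and CXCR2, and the inhibitors IκBα (*NFKBIA*) and A20 (*TNFAIP3*), which shut the pathway down again. Most of these mRNAs are short-lived, many through AU-rich elements in the 3′UTR, and ALKBH5 removes the m6A methyl mark from mRNA.

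The 6 CXC genes lie within 359 kb of chromosome 4 (73740519 to 74099196, GRCh38), *CXCL8* (ENSG00000169429), *CXCL6* (ENSG00000124875) and *CXCL1* (ENSG00000163739) on the plus strand, and *CXCL5* (ENSG00000163735), *CXCL3* (ENSG00000163734) and *CXCL2* (ENSG00000081041) on the minus strand. *CCL2* (ENSG00000108691) is on chromosome 17 (34255274 to 34257208), *NFKBIA* (ENSG00000100906) on chromosome 14 (35401079 to 35404749), and *TNFAIP3* (ENSG00000118503) and *IER3* (ENSG00000137331) on chromosome 6 (137867214 to 137883314 and 30743199 to 30744548). The coding sequences of *CXCL2* and *CXCL3* were 94.4% identical, those of *CXCL1* and *CXCL2* 93.5%, and those of *CXCL5* and *CXCL6* 87.5%. No stretch of 150 bases of any member was shared with another gene's annotated transcripts, but 10.1% of the 50-base stretches of *CXCL2*, 5.33% of *CXCL1* and 5.26% of *CXCL3* were. *IER3*, *CXCL5*, *TNFAIP3* and *CXCL6* overlap the exons of other annotated genes by 440, 422, 95 and 94 bases, and whether the PP reads were counted by strand is not given in the sources used here.

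Promoter sequence shows what 7 of the 8 members found in the RefSeq promoter table (GRCh38.p14) had in common. GGAATTTCC, read on either strand, occurred in the window from 250 bases before to 50 after the start of *CXCL1*, *CXCL2*, *CXCL3*, *CXCL5*, *CXCL6*, *CXCL8* and *NFKBIA*, between 77 and 91 bases before the start, whereas 0.461% of all 35116 promoters held it. A 10-base NF-κB consensus also occurred in 7 of the 8, against 11.3% of all promoters, missing in *CXCL8* and present in *TNFAIP3*, and it overlaps the 9-base motif in the 6 genes that hold both. These motifs were searched because they are known NF-κB sites, and a match is a description of the letters. The 120 bases before the start of 5 members that differ in their response below are given 5′ to 3′ on the gene's strand, with the matched letters in capitals.
CXCL1 (chr4:73869273-73869392, plus strand): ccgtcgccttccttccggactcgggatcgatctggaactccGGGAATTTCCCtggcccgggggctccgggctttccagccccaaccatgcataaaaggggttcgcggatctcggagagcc
CXCL5 (chr4:73998678-73998797, minus strand): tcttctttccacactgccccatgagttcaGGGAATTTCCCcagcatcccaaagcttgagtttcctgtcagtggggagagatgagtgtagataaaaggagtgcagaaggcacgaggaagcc
CXCL8 (chr4:73740449-73740568, plus strand): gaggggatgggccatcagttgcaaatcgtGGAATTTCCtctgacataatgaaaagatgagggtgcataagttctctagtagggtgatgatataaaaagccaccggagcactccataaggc
NFKBIA (chr14:35404750-35404869, minus strand): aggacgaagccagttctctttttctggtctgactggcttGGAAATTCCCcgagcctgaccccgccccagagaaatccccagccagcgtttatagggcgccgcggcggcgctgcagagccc
TNFAIP3 (chr6:137867139-137867258, plus strand): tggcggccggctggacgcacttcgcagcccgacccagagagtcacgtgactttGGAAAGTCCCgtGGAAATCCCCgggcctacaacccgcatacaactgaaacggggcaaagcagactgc

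The 3′UTRs were all richer in ATTTA than the median of 19229 protein-coding transcripts (1.52 per kb). *CXCL2* had 14.0 ATTTA per kb, *CXCL3* 10.4, *IER3* 8.14, *CXCL1* 7.77 and *CXCL8* 7.19, and the lowest density was that of *TNFAIP3* at 2.51. At least 4 copies were found in 8 of the 10 members and in 34.4% of all transcripts, and the longer element TTATTTATT in 5 of 10 and in 8.50%. GGACT, a common m6A sequence context, was absent from the whole canonical transcripts of *CXCL1*, *CXCL2*, *CXCL5*, *CXCL6*, *CXCL8* and *CCL2*. It was found 1 time in *CXCL3*, 10 times in *TNFAIP3* and 4 times each in *NFKBIA* and *IER3*, and had a median of 3 copies over all transcripts. Per kb of transcript, *CXCL3* (0.93) was near the median of all (0.92), with *TNFAIP3* at 2.14, *NFKBIA* at 2.57 and *IER3* at 3.23. The densest 30-base stretch of ATTTA in 4 of the CXC genes is shown, with ATTTA in capitals. *CXCL5* shares the element but not the tandem copies of the others shown. That is not particular to *CXCL5*. The densest stretches of *CXCL3* (2 copies, set apart) and *CXCL6* (1 copy) held no tandem copies either, and *CXCL6*, like *CXCL5*, had no TTATTTATT.
CXCL1 (chr4:73870665-73870694, plus strand): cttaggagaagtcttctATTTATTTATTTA
CXCL2 (chr4:74097590-74097619, minus strand): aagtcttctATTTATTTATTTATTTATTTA
CXCL5 (chr4:73996688-73996717, minus strand): caaacaatttgaatataaATTTAtcATTTA
CXCL8 (chr4:73743108-73743137, plus strand): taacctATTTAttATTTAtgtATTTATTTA

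The PP libraries held between 30516384 and 35206514 reads. *ALKBH5* was at 149 and 172 CPM (reads of the gene scaled to the library total) in untreated WT PPs against 19.1 and 18.8 CPM in untreated A5-KO PPs, and at 78.8 and 81.9 TPM (the same scaling after division by transcript length) in WT hILOs and 4.16 and 3.42 TPM in A5-KO hILOs. The labelled cell types expressed their markers: *PDX1*, *NKX6-1* and *SOX9* were at 153 CPM or more in all PP libraries at 0 h, while *PTF1A* was at most 0.464 CPM, and *INS*, *GCG*, *SST* and *CHGA* were at 107 TPM or more in every hILO library. The leukocyte gene *PTPRC* was at most 0.0433 TPM in hILOs and at 0 in all PP libraries, and *VWF* and *CDH5* of endothelium were at most 0.651 CPM in PPs and 0.0938 TPM in hILOs. *PECAM1*, also of endothelium, was at 2.79 to 7.90 CPM in PPs and 0.163 to 0.215 TPM in hILOs, and *CD68* reached 111 TPM and *LYZ* 797 TPM in hILOs.

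The WT libraries at 3 h stood apart, which touches every comparison that uses them. For 128 genes called higher in A5-KO than WT PPs at both 0 and 1 h, members left out, each library was placed between WT at 1 h (0%) and A5-KO at 1 h (100%) on the log2 scale. The median gene was at 8.91% and 24.8% in the 2 WT libraries at 2 h, and at 45.7% and 56.6% in those at 3 h, while A5-KO libraries stayed between 96.6% and 107%. For 61 genes called lower in A5-KO the WT libraries at 3 h were at 40.2% and 54.4%. *ALKBH5* itself was at 48.3 and 33.7 CPM in WT cells at 3 h, against 107 and 83.4 CPM at 2 h. In addition, 1670 genes that were called lower after 1 h in both genotypes kept falling in A5-KO, to 25.8% and 22.1% of their 0 h level at 3 h, but stood at 49.8% and 58.2% in WT at 3 h and at 51.6% in WT replicate 2 at 2 h. What set these libraries apart was not tested.

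**Figure D1:**
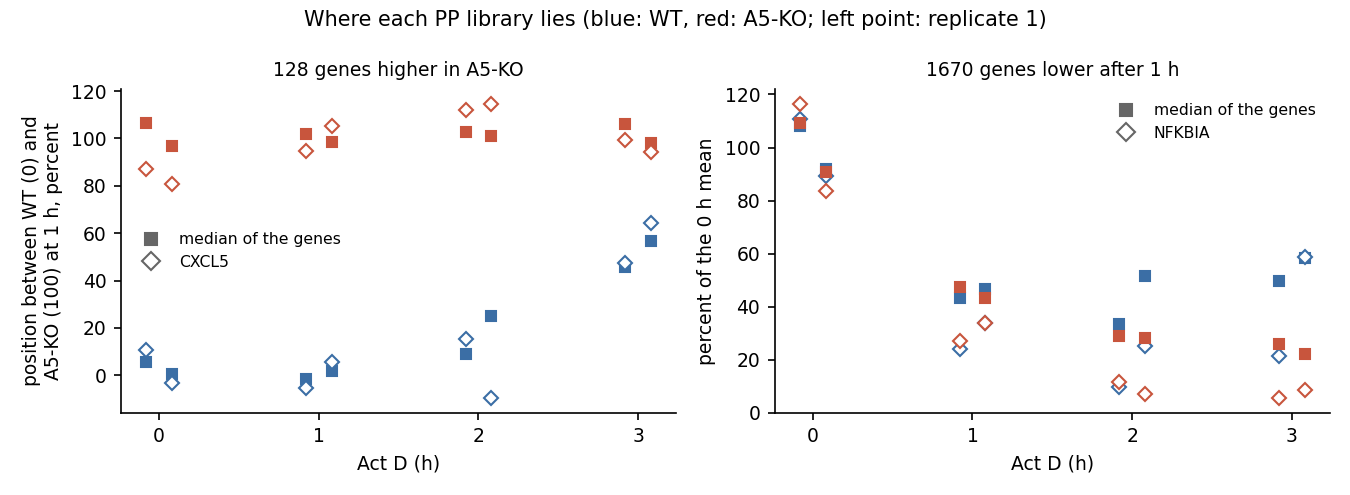
The left panel shows the median position of each PP library between WT (0) and A5-KO (100) for 128 genes higher in A5-KO (squares), with *CXCL5* (diamonds), and the right panel the median percentage of the 0 h level for 1670 genes lower after 1 h (squares), with *NFKBIA* (diamonds). Both WT libraries at 3 h lie near the middle on the left (45.7% and 56.6%) and above all A5-KO libraries at 3 h on the right (49.8% and 58.2%).

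*IER3* could not be read in PPs. It was listed at 0 in 12 of 16 PP libraries and had at most 3 reads, yet it was at 29.5 to 54.6 TPM in hILOs. It lies in the MHC region, where 60 of 87 protein-coding genes averaging 10 TPM or more in hILOs (69.0%) were under 1 CPM in every PP library, against 8.59% of 8751 genes over all chromosomes. The ribosomal protein gene *RPS18* in that region was at 2227 to 3154 TPM in hILOs and at most 0.696 CPM in PPs, so the PP values of *IER3* say nothing about its expression.

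The ligands came first in the comparison of the hILOs, in which 3 of 10 members were called (6.79% of all 17300 genes tested were). *CXCL1*, *CXCL8* and *IER3* were called, all lower in A5-KO (4.09% of all genes were called lower). Calls needed more than a 1.5-fold change on the log2(TPM + 1) scale together with a limma *p*, adjusted by the method of Benjamini and Hochberg, under 0.05. The 2 groups did not overlap for 7 of the 10 members, 6 lower and 1 higher in A5-KO, beside 61.4% of all genes. The median log2 difference was -0.25 over the 10 members and -0.06 over all genes.

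*CXCL1*, a neutrophil attractant also called GROα, was at 32.6 and 34.5 TPM in WT hILOs and at 5.82 and 7.87 TPM in A5-KO hILOs. The groups lay far apart, with a log2 fold change of -2.15 (SE 0.16, limma adjusted *p* = 0.00701). *CXCL8*, which encodes interleukin-8, was at 70.6 and 79.2 TPM in WT cells and at 32.5 and 37.0 TPM in A5-KO cells. Here too every A5-KO library was below every WT library (log2 fold change -1.08, SE 0.10, limma adjusted *p* = 0.0102). *CXCL5*, the epithelial member known as ENA-78, went the other way, from 162 and 166 TPM in WT cells to 216 and 219 TPM in A5-KO cells. Its difference of 0.40 (SE 0.04, limma adjusted *p* = 0.0101) was 1.32-fold and so under the 1.5-fold limit.

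The near-identical *CXCL2* and *CXCL3*, which share their receptor with *CXCL1*, did not pass the test. *CXCL2* was at 21.1 and 19.5 TPM in WT cells and 21.3 and 20.0 TPM in A5-KO cells, overlapping groups with a log2 difference of 0.03 (95% interval -0.21 to 0.26). *CXCL3* was at 17.3 and 17.7 TPM in WT cells and 15.3 and 12.5 TPM in A5-KO cells, a difference of -0.32 (95% interval -0.65 to 0.02). *CXCL6*, the closest paralog of *CXCL5*, was low, at 2.11 and 2.19 TPM in WT cells and 0.732 and 1.61 TPM in A5-KO cells (log2 difference -0.57, limma adjusted *p* = 0.25).

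The make-up of the CXC group was therefore different while its total was not far apart. The 6 CXC genes summed to 306 and 319 TPM in WT cells and to 292 and 298 TPM in A5-KO cells. All TPM values of a library summed to 924887 and 922614 in WT and to 897038 and 887320 in A5-KO, so these totals are not on exactly the same scale. *CXCL5* gave 53.1% and 52.0% of that sum in WT and 74.1% and 73.5% in A5-KO, and *CXCL1* gave 10.6% and 10.8% in WT and 1.99% and 2.64% in A5-KO. These shares are descriptions of 2 libraries a group, and fewer cells of a type cannot be told apart from less RNA per cell in bulk samples.

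*CCL2*, which attracts monocytes, differed more between replicates than between genotypes. It was at 17.8 TPM in replicate 1 and 97.7 TPM in replicate 2 of WT, and the same replicates of A5-KO stood at 32.2 and 336 TPM. The 95% interval of its log2 difference ran from -2.52 to 5.11. Over all 17300 genes, 9 differed by more than 2 on the log2 scale between the replicate numbers in the same direction in both genotypes, and *CCL2* was 1 of the 5 that were higher in replicate 2.

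**Figure D2:**
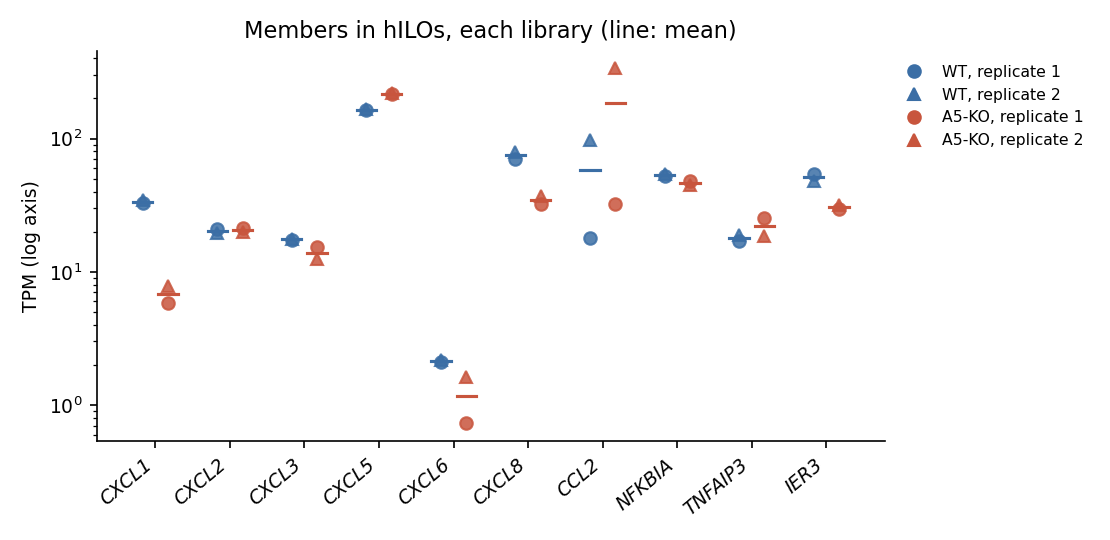
TPM on a log axis of the 10 members in each hILO library, WT in blue and A5-KO in red, circles for replicate 1, triangles for replicate 2 and lines for the mean. *CXCL1*, *CXCL8* and *IER3* are lower in both A5-KO libraries, *CXCL5* is higher in both, and *CCL2* separates by replicate number.

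Among the feedback inhibitors in hILOs, *NFKBIA* was at 52.6 and 54.4 TPM in WT cells and 48.3 and 45.0 TPM in A5-KO cells, a log2 difference of -0.19 (95% interval -0.37 to -0.02, limma adjusted *p* = 0.131). *TNFAIP3* was at 16.9 and 18.9 TPM in WT cells and 25.2 and 18.6 TPM in A5-KO cells, with overlapping groups. *IER3*, an early gene that modulates cell survival, was at 54.6 and 48.1 TPM in WT cells and 29.5 and 31.7 TPM in A5-KO cells (log2 fold change -0.73, SE 0.09, limma adjusted *p* = 0.0187). The 3 called members kept their direction in all alternatives, but none was called when genes of low value were kept in the test (limma adjusted *p* = 0.0521 for *CXCL1*, 0.0605 for *CXCL8* and 0.0772 for *IER3*), *CXCL1* was not called without either WT library (limma adjusted *p* = 0.0608 and 0.0635), and *CXCL8* and *IER3* were not called when any 1 library was left out.

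By mean TPM in hILOs, *CXCL5* was the highest member in both genotypes and *CXCL6* the lowest, but in A5-KO the libraries of *CCL2* (32.2 and 336 TPM) lay on both sides of those of *CXCL5*. In WT hILOs the order below *CXCL5* was *CXCL8*, *CCL2*, *NFKBIA*, *IER3*, *CXCL1*, *CXCL2*, *TNFAIP3* and *CXCL3* by mean TPM. The range of *CCL2* (17.8 to 97.7 TPM) overlapped those of all members from *CXCL8* down to *TNFAIP3*, so its place in this order cannot be read. Ranges also overlapped between *NFKBIA* and *IER3*, and between *TNFAIP3* and *CXCL3*, whereas *CXCL1* (32.6 to 34.5 TPM) stood clear of *IER3* (48.1 to 54.6 TPM) and *CXCL2* (19.5 to 21.1 TPM). In A5-KO hILOs *CXCL1* had moved to the ninth place, below *CXCL3* (12.5 to 15.3 TPM).

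In PPs, 5 members averaged 1 CPM or more across the 16 libraries and could be tested, *CXCL1*, *CXCL3*, *CXCL5*, *NFKBIA* and *TNFAIP3*. *CXCL1* (mean 1.09 CPM) passed this limit only through WT, so its tests between genotypes carry that limit. WT libraries ranged from 0.861 to 2.61 CPM and A5-KO libraries from 0.197 to 1.23 CPM. Per kb of exon at 0 h, *NFKBIA* was the highest in WT (5.03 to 6.26 CPM per kb) ahead of *CXCL1* (1.73 to 1.92) and *CXCL5* (1.08 to 1.46), whereas in A5-KO *CXCL5* (5.57 to 6.25) overlapped *NFKBIA* (5.08 to 7.10). The other 5 members were under the limit of 1 CPM: *CXCL2* had a median of 16.5 reads per library, *CXCL6* 10.5, *CCL2* 8.5 and *CXCL8* 7.0, with *IER3* at 0. At these depths no difference of *CXCL2*, *CXCL6*, *CXCL8* or *CCL2* between genotypes was tested. *CXCL8* ranged from 0 to 0.623 CPM and was at 0 in 2 libraries, where 3 reads would have been at most 0.0983 CPM.

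Before Act D, 1 of the 5 tested members was called between the genotypes, beside 2.53% of all 13620 genes. That was *CXCL5*, at 3.56 and 2.63 CPM in WT cells and 15.2 and 13.6 CPM in A5-KO cells. A5-KO libraries were above WT libraries without overlap, with a log2 fold change of 1.92 on the log2(CPM + 1) scale (SE 0.21, limma adjusted *p* = 1.94e-05) and a ratio of the means of 4.65. *CXCL1* was at 2.61 and 2.35 CPM in WT cells and at 0.927 and 1.23 CPM in A5-KO cells, again without overlap but in the opposite direction (49.8% of all genes did not overlap). Its log2 difference of -0.75 (SE 0.21) missed the threshold (limma adjusted *p* = 0.0609, over 76 to 91 reads in WT libraries). *CXCL3* was at 0.919 and 1.52 CPM in WT cells and 1.55 and 1.08 CPM in A5-KO cells, overlapping groups.

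The ratio of *CXCL5* to *CXCL1* compares both genes within a library. In CPM, a ratio of reads that is not corrected for length, it was 1.36 and 1.12 in WT PPs at 0 h and 16.4 and 11.0 in A5-KO PPs, and in TPM, which is per length, 4.99 and 4.80 in WT hILOs and 37.2 and 27.8 in A5-KO hILOs. The stages come from different units and pipelines and were not tested against each other. In both, the A5-KO ratios were above the WT ratios. That had to follow, because *CXCL5* was higher and *CXCL1* lower in A5-KO at each stage, without overlap. The ratio is therefore a description and adds no separate evidence. In PPs its denominator, *CXCL1*, passed the limit of 1 CPM only through WT.

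Levels of the feedback inhibitors were close between genotypes at 0 h. *NFKBIA* was at 21.2 and 17.1 CPM in WT cells and 24.1 and 17.3 CPM in A5-KO cells, with a log2 difference of 0.09 (95% interval -0.69 to 0.88). *TNFAIP3* was at 5.17 and 3.81 CPM in WT cells and 5.93 and 4.86 CPM in A5-KO cells (0.23, 95% interval -0.37 to 0.82). Both pairs of groups overlapped, and both intervals include a 1.5-fold difference.

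**Figure D3:**
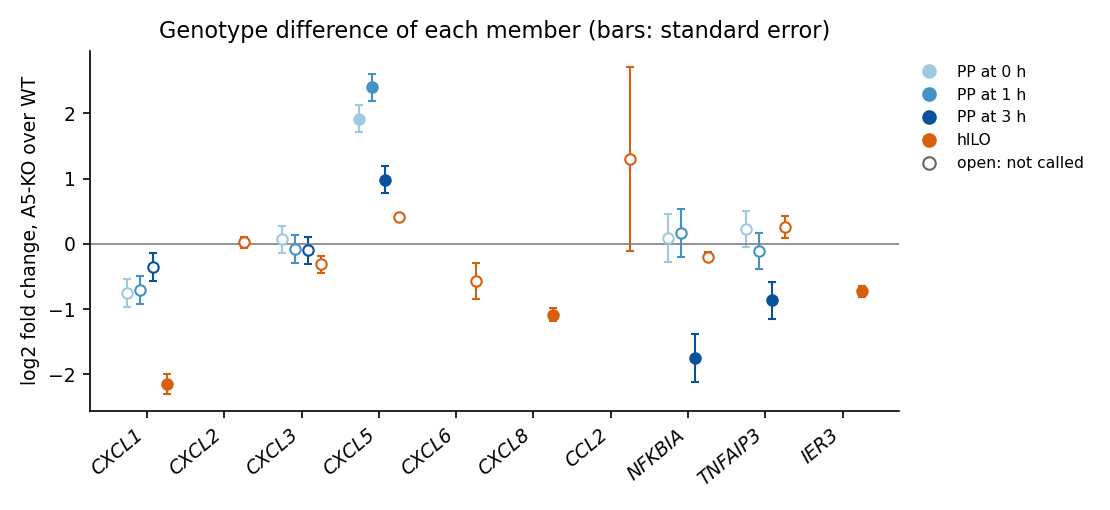
Log2 fold change of A5-KO over WT for each member tested, in PPs at 0, 1 and 3 h of Act D and in hILOs, with the standard error as bars and filled points for called members. *CXCL5* is above 0 and *CXCL1* below 0 in all 4 comparisons, while *NFKBIA* and *TNFAIP3* are called in PPs at 3 h alone.

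Act D allows the loss of existing transcripts to be followed, as a share of the reads that remain, because CPM is relative to the library total and no spike-in scaling was applied here. After 1 h, 2 of 5 members were called lower than at 0 h in WT cells (15.5% of all genes were called, 15.3% lower) and the same 2 in A5-KO (17.8% of all genes, 16.7% lower). *NFKBIA* fell from 21.2 and 17.1 CPM to 4.55 and 6.44 CPM in WT cells and from 24.1 and 17.3 CPM to 5.55 and 6.95 CPM in A5-KO cells. The log2 changes were -1.64 (SE 0.37, limma adjusted *p* = 0.00402) and -1.57 (SE 0.37, limma adjusted *p* = 0.00413). *TNFAIP3* fell to 1.94 and 1.63 CPM in WT cells and to 2.16 and 1.11 CPM in A5-KO cells, changes of -0.97 (SE 0.28, limma adjusted *p* = 0.0188) and -1.30 (SE 0.28, limma adjusted *p* = 0.00228). Both inhibitors were thus below all 0 h libraries of their genotype after 1 h, a separation of groups seen in 69.5% of all genes in WT and 67.8% in A5-KO, in either direction. In WT, neither call was kept without replicate 1 at 0 h or without replicate 1 at 1 h (limma adjusted *p* = 0.0555 and 0.0552 for *NFKBIA*, 0.184 and 0.0672 for *TNFAIP3*), nor was that of *TNFAIP3* without replicate 2 at 1 h (limma adjusted *p* = 0.113). In A5-KO, *NFKBIA* was not called without replicate 1 at 0 h (limma adjusted *p* = 0.0679).

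The first-hour change did not differ detectably between the genotypes for any member. None of 5 was called by limma, edgeR or DESeq2, beside 0.220% of all genes by limma, and 0 of 5 had an unadjusted *p* under 0.05 (1225 of 13620 genes did). The difference of A5-KO minus WT was 0.07 for *NFKBIA* (95% interval -1.03 to 1.18) and -0.33 for *TNFAIP3* (95% interval -1.18 to 0.51), intervals that include a 2-fold difference. *CXCL1* went from 2.61 and 2.35 CPM to 1.26 and 1.59 CPM in WT cells and from 0.927 and 1.23 CPM to 0.547 and 0.409 CPM in A5-KO cells without passing the threshold (limma adjusted *p* = 0.0898 and 0.087). *CXCL5* was not called lower in either genotype. It was at 2.49 and 3.19 CPM in WT cells and 17.5 and 20.9 CPM in A5-KO cells after 1 h, when it was again the 1 member called between genotypes by limma (log2 fold change 2.39, SE 0.21, limma adjusted *p* = 1.41e-06, beside 4.08% of all genes). *CXCL1* differed by -0.71 at 1 h with limma on the log2(CPM + 1) scale (adjusted *p* = 0.0513) and was called on the recovered reads by edgeR (log2 fold change -1.60, adjusted *p* = 0.0439) and DESeq2 (-1.60, adjusted *p* = 0.0346). Those 2 calls rest on 19 and 14 reads in the A5-KO libraries at 1 h, against 44 and 49 in WT.

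At 2 h *NFKBIA* was at 1.80 and 4.78 CPM in WT cells and 2.28 and 1.41 CPM in A5-KO cells, and *TNFAIP3* at 0.802 and 2.2 CPM in WT cells and 0.934 and 0.623 CPM in A5-KO cells. In both genes WT replicate 2 was the high library, the one in which 1670 short-lived transcripts also stood at 51.6% of 0 h. *CXCL5* was at 3.92 and 2.26 CPM in WT cells and 23.6 and 24.6 CPM in A5-KO cells, its highest level in PPs. With 2 h in place of 3 h, a comparison added after seeing the data, *CXCL5* was the only member called of 5 (log2 fold change 2.65, limma adjusted *p* = 5.19e-07, beside 6.89% of all genes), and the difference was -0.52 for *NFKBIA* (adjusted *p* = 0.358) and -0.44 for *TNFAIP3* (adjusted *p* = 0.303).

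At 3 h, 3 of 5 members were called between genotypes, beside 18.9% of all genes, with the WT libraries described above on 1 side of each. *NFKBIA* and *TNFAIP3* were not called at 2 h, whereas *CXCL5* was called at every time. *NFKBIA* was at 4.03 and 11.2 CPM in WT cells and at 1.02 and 1.68 CPM in A5-KO cells (log2 fold change -1.75, SE 0.37, limma adjusted *p* = 0.00198). *TNFAIP3* was at 2.71 and 1.52 CPM in WT cells and at 0.795 and 0.569 CPM in A5-KO cells (-0.87, SE 0.28, limma adjusted *p* = 0.0275). *CXCL5* was at 7.37 and 10.1 CPM in WT cells and at 18.9 and 17.2 CPM in A5-KO cells (0.98, SE 0.21, limma adjusted *p* = 0.00183). The groups did not overlap in any of the 3 (66.0% of all genes did not), but both WT libraries at 3 h were above both WT libraries at 2 h for *CXCL5*, and the value of 11.2 CPM was above every WT library at 1 or 2 h for *NFKBIA*. The median of all genes was -0.13 in this comparison and -0.01 after median-of-ratios scaling, which left the 3 calls in place and split the calls of all genes into 372 higher and 1867 lower instead of 157 and 2411. *TNFAIP3* was not called without WT replicate 1 (-0.58, adjusted *p* = 0.203), A5-KO replicate 1 (adjusted *p* = 0.0627) or A5-KO replicate 2 (adjusted *p* = 0.154), nor when genes of low value were kept in the test (adjusted *p* = 0.148).

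From 1 to 3 h, *NFKBIA* fell on in A5-KO by 1.63 on the log2 scale (SE 0.37, limma adjusted *p* = 0.00392, the 1 member of 5 called, beside 16.4% of all genes), and this call was kept in all alternatives, 2 h in place of 3 h included (limma adjusted *p* = 0.032, beside 6.39% of all genes). In WT it was not called, with 4.55 and 6.44 CPM at 1 h and 4.03 and 11.2 CPM at 3 h (0.28, 95% interval -0.50 to 1.07, limma adjusted *p* = 0.998), and *CXCL5* rose by 1.33 (SE 0.21, limma adjusted *p* = 0.00288), the 1 member called in WT beside 0.595% of all genes. With 2 h in place of 3 h the WT change of *CXCL5* was 0.07 (adjusted *p* = 0.949), and it was not called without WT replicate 1 at 1 h (1.2, adjusted *p* = 0.0766) or WT replicate 2 at 3 h (1.13, adjusted *p* = 0.0679). The difference of the 1 to 3 h change, A5-KO minus WT, was called for *NFKBIA* (-1.92, SE 0.52, limma adjusted *p* = 0.0179) and *CXCL5* (-1.41, SE 0.29, limma adjusted *p* = 0.00401), 2 of 5 members beside 16.6% of all genes, and for neither with 2 h in place of 3 h (adjusted *p* = 0.474 and 0.647, with 0.00734% of all genes called). That of *NFKBIA* was not called without WT replicate 2 at 3 h (-1.28, adjusted *p* = 0.0876), WT replicate 1 at 1 h (adjusted *p* = 0.0812), A5-KO replicate 2 at 1 h (adjusted *p* = 0.0683) or A5-KO replicate 1 at 3 h (adjusted *p* = 0.0623).

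**Figure D4:**
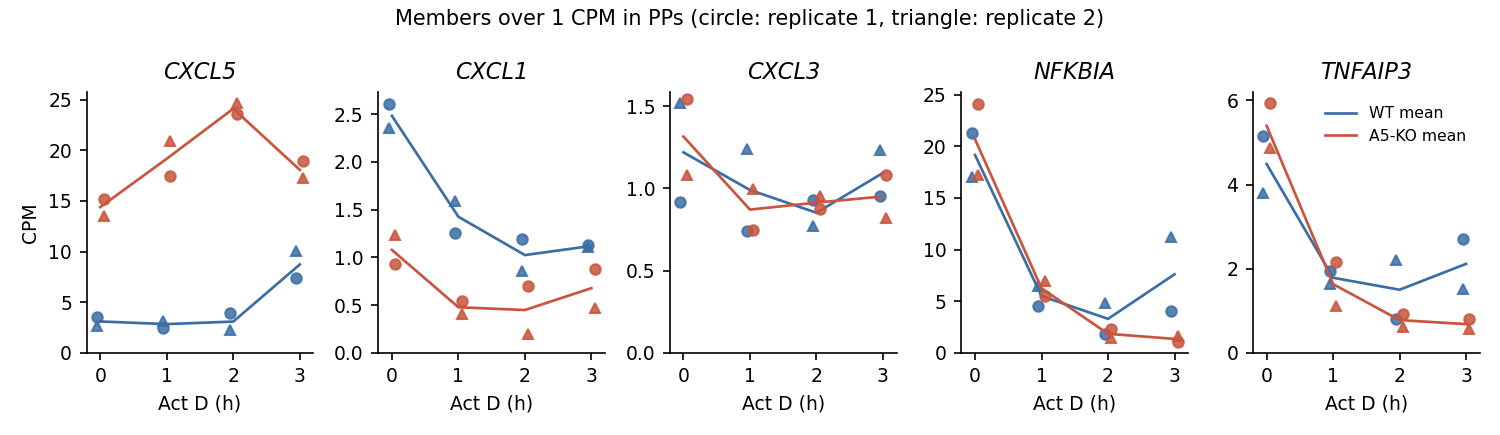
CPM of the 5 members over 1 CPM in PPs against hours of Act D, each library as a point and the mean of each genotype as a line. *NFKBIA* and *TNFAIP3* drop within 1 h in both genotypes, WT values at 3 h lie between 4.03 and 11.2 CPM for *NFKBIA*, and *CXCL5* is at 13.6 CPM or more in every A5-KO library.

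Half-lives put the same values on 1 scale, as the inverse slope of log2 ratios against time, each ratio taken to the 0 h library of the same number and the line forced through 0. Replicate numbers did not pair the samples, so this match is arbitrary, and the spread between the 2 half-lives of a genotype depends on it. *NFKBIA* had a half-life of 0.859 and 2.05 h in WT cells and of 0.634 and 0.769 h in A5-KO cells. That of *TNFAIP3* was 1.53 and 2.14 h in WT cells and 0.948 and 0.861 h in A5-KO cells. Over 13620 genes the medians were 14.6 and 31.8 h in WT cells and 9.82 and 9.74 h in A5-KO cells, above both inhibitors in every replicate. *CXCL1* had a half-life of 2.14 and 2.22 h in WT cells and 8.82 and 1.5 h in A5-KO cells. The A5-KO values of *CXCL1* rest on 6 to 42 reads per library, too few to read a decay, and its replicate 1 stood at 95.5% of 0 h at 3 h. It also passed the limit of 1 CPM only through WT. *CXCL5* had no half-life because its share rose. That is not particular to *CXCL5*: 65.7% and 60.6% of all genes fell in WT cells and 65.5% and 67.8% in A5-KO cells. None of the 5 decay slopes was called between genotypes (limma, 2.67% of all genes called), with 2 of 5 at an unadjusted *p* under 0.05 (3047 of 13620 genes were): *NFKBIA* at -0.80 log2 per h (limma adjusted *p* = 0.149) and *TNFAIP3* at -0.57 log2 per h (limma adjusted *p* = 0.202). Without both WT libraries at 3 h, an alternative added after seeing the data, the slopes differed by -0.01 and -0.11 log2 per h.

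In the wider pathway, none of 20 NF-κB pathway genes (receptors, adaptors, kinases and NF-κB subunits) was called at 0 h, at 1 h or in hILOs, with list medians of 0.03, -0.03 and 0.08 beside 0.03, 0.03 and -0.06 for all genes. At 3 h 8 of 20 were called, 7 lower and 1 higher in A5-KO, beside 18.9% of all genes, with a list median of -0.39 and -0.13 for all genes. The largest were the adaptor *TRAF6* (-1.72), the kinase *RIPK1* (-1.17), the TNF receptor *TNFRSF1A* (-1.05), and the subunits *RELB* (-0.87) and *RELA* (-0.71), then the adaptor *TRAF2* (-0.66). *TRAF6* was at 7.79 and 10.1 CPM in WT cells and at 1.79 and 2.21 CPM in A5-KO cells at 3 h, but at 3.66 and 5.26 CPM in WT cells at 2 h, so both WT libraries at 3 h were above both at 2 h.

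Of 25 other NF-κB targets, 17 were tested in PPs. At 0 h 3 of these were called, all lower in A5-KO (2.53% of all genes were called, 150 of 13620 lower): *ICAM1*, an adhesion molecule (5.68 and 7.87 CPM in WT cells, 2.94 and 3.22 CPM in A5-KO cells), *PTX3*, a secreted pattern recognition protein (8.44 and 13.1 CPM, 4.91 and 6.09 CPM), and *TNFAIP2* (92.7 and 91.2 CPM, 58.4 and 61.5 CPM). *PTX3* was also called at 1 h. At 3 h 5 of 17 were called lower, beside 17.7% of all genes, the largest *NFKBIE*, another IκB protein (-1.67), then *BCL3* (-0.83), *BIRC2* (-0.77), *BIRC3* (-0.74) and *ICAM1* (-0.69). In hILOs 3 of 18 were called, beside 6.79% of all genes: *CCL20*, a chemokine for CCR6-bearing cells, was at 298 and 308 TPM in WT cells and 153 and 152 TPM in A5-KO cells, *LIF* differed by -0.79, and *BIRC3*, an inhibitor of apoptosis, was higher in A5-KO (24.2 and 25.6 TPM in WT cells, 63.7 and 59.9 TPM in A5-KO cells).

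Other chemokines and receptors were mostly too low to test, 4 of 17 in PPs and 8 of 17 in hILOs. The receptors of the ELR+ ligands, *CXCR1* and *CXCR2*, were at most 0.114 CPM in PPs and 0.0399 TPM in hILOs. *CXCR4*, the receptor of CXCL12, was lower in A5-KO at 0 h (14.2 and 12.3 CPM in WT cells, 8.68 and 8.23 CPM in A5-KO cells), at 3 h and in hILOs (70.7 and 74.4 TPM, 37.6 and 33.0 TPM). *CXCL16* was called higher in A5-KO at 1 h (0.84). In hILOs *CXCL11*, induced by interferon, was higher (12.0 and 14.1 TPM in WT cells, 40.9 and 40.4 TPM in A5-KO cells), and *CXCL14* (9.32 and 9.36 TPM, 1.01 and 1.24 TPM) and the decoy receptor *ACKR3* (-0.64) were lower.

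Some markers of other cell types also differed between the genotypes. Of all genes, 2.53% were called between genotypes at 0 h, 4.08% at 1 h and 18.9% at 3 h in PPs, and 6.79% in hILOs. Of the 4 hepatocyte genes, *ALB*, *AFP* and *TTR* were called higher in A5-KO PPs at 0 h, and the summed CPM of the list was 690 to 699 in WT and 1532 to 1555 in A5-KO. In hILOs *ALB* and *TTR* were called higher, and the sum was 17025 to 17352 TPM in WT cells and 29847 to 30189 TPM in A5-KO cells. Of 4 mesenchyme genes *COL1A1* and *COL3A1* were called higher in A5-KO PPs at 0 h (sums of 36.6 to 41.0 and 83.8 to 92.1 CPM), with *DCN* at most 0.909 CPM. *LYZ* was the 1 of 3 tested leukocyte genes called higher in A5-KO hILOs, and it was called lower in A5-KO PPs at 1 h (-0.60). Of 4 endothelial genes only 1 was tested in PPs, where it was not called between genotypes, and 0 were tested in hILOs. Of the 4 endocrine genes *INS*, *GCG* and *SST* were called lower in A5-KO hILOs, and of 5 progenitor genes tested *ONECUT1* was called lower in A5-KO PPs at 0 h. At 3 h all 5 (*PDX1*, *NKX6-1*, *SOX9*, *MNX1* and *ONECUT1*) were called lower in A5-KO PPs (median -2.06), as *NFKBIA* and *TNFAIP3* were, beside 17.7% of all genes. In the difference of the 1 to 3 h change 4 of the 5 were called, beside 16.6% of all genes. Both comparisons use the WT libraries at 3 h that stood apart. From 1 to 3 h in WT, 0 of the 5 were called (median 0.19). Of the 2 duct genes *KRT19* was called higher in A5-KO PPs at 1 h. The part of these cells in the values of the members was not tested. Over the 16 PP libraries, the genes most like *CXCL5* in log2(CPM + 1), a search added after seeing the data, were *TSPAN8*, *SLC44A3*, *ANXA4*, *TTR* and *STOM* (Pearson's *r* from 0.974 to 0.982 among 8919 genes). Those most like *NFKBIA* were *ZNF92*, *PLK2*, *NGDN*, *ZNF260* and *GTPBP4* (*r* from 0.978 to 0.981), and the points share genotype, time and scaling. With 0 to 19 reads per library, *CXCL8* is too sparse for its own list (*r* of at most 0.825) to be read.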

How the data were processed

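RNA-seq of 16 PP and 4 hILO libraries was analysed. Per the labels, the authors' processing notes name fastp and HISAT2 (2.1.0), and the methods name StringTie for TPM. The counter of the PP reads, its strand setting and the annotation release are not given in the sources used here. The deposited PP files hold CPM made by the authors, and each value came out as a whole read for 100% of values (tolerance 0.02 of a read), so reads and depths were recovered. The deposited hILO files hold TPM made by the authors, which keep no depth. Identifiers were named through GENCODE v44 (60369 of 60623 matched in PPs).

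Levels were tested as log2(CPM + 1) or log2(TPM + 1) with limma (3.58.1, R 4.3.3), with all PP libraries in 1 model, over genes averaging 1 CPM or TPM or more. Decay slopes used log2(CPM + 0.1). *p*-values were two-sided and adjusted over all genes tested (Benjamini-Hochberg), with calls at an adjusted *p* below 0.05 and over 1.5-fold (slopes: adjusted *p* alone). An exact permutation test of 2 against 2 libraries cannot go below 0.333. The tests were checked on simulated data with a fixed spread. Changes were placed only in genes at higher levels than *CXCL1*, *CXCL3* and *TNFAIP3* averaged in PPs, so the check does not cover these members. Alternatives were edgeR (4.0.16) and DESeq2 (1.42.0) on recovered reads, other pseudocounts, no filter, median-of-ratios scaling, the replicate block, the compared groups alone, other time points and leaving out each library. Named were all members, *ALKBH5*, up to 6 called genes of each list and comparison, largest changes first, and the 5 genes most like *NFKBIA* and *CXCL8*. The members and lists were chosen with earlier results of these data known.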

Additional observations from a re-analysis of the deposited data

Results flagged for a closer look

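The change from 1 to 3 h differed between the genotypes for *CXCL5* (A5-KO minus WT, -1.41 on the log2 scale) and for *NFKBIA* (-1.92) by the interaction term of limma, and both results rest on the WT libraries at 3 h: with 2 h in place of 3 h the values were 0.25 and -0.69, and neither was called. *CXCL6* was lower in both A5-KO libraries of the hILOs (log2 difference -0.57) and higher in both A5-KO libraries of the PPs at 0 h (0.258 and 0.186 CPM in WT cells, 0.309 and 0.264 CPM in A5-KO cells). The PP values are only 9 and 6 reads in WT and 10 and 9 reads in A5-KO, too few to read a direction. Of all genes, 61.4% did not overlap between genotypes in hILOs and 49.8% in PPs at 0 h. The difference between the stages was not tested, and *CXCL6* was under the limit for testing in PPs. With 2 libraries a group, no search for a library far from its group was possible.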

How the results depend on the processing

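Of 16 called results of single members, 5 were called in every setting and 1 reversed (*CXCL5*, the difference of the 1 to 3 h change). Differences of slope that were not called reversed in 4 further cases. Members called changed as follows. At 1 h edgeR and DESeq2 each called 2 in place of 1. When low genes were kept, the WT change from 0 to 1 h had 1 in place of 2, the difference of the 1 to 3 h change 1 in place of 2, the genotypes at 3 h 2 in place of 3, and hILOs 0 in place of 3. With only 0 and 3 h the decay slope had 3 in place of 0. With 2 h in place of 3 h (chosen after seeing the data) 1 of 3 was called between genotypes, 0 of 1 in WT against 1 h, and 0 of 2 for the difference of the change. The *CXCL5* value for that difference reversed to 0.25. Without WT libraries at 3 h (also chosen after seeing the data) the *CXCL5* slope difference reversed to 0.15, and without WT replicate 2 at 2 h as well it was 0.00059, with 0.35 for *NFKBIA* and 0.24 for *TNFAIP3*. The cause was not tested.

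Leaving out 1 library gave 2 to 3 members called at 3 h, 0 to 2 in WT and 1 to 2 in A5-KO from 0 to 1 h, 0 to 1 in WT from 1 to 3 h, 1 to 2 for the difference of the 1 to 3 h change, 0 to 1 for slopes (*NFKBIA* without WT replicate 1 at 2 h, limma adjusted *p* = 0.043) and 0 to 1 in hILOs. Replicate numbers did not pair the samples (correlation of deviations between 0.18 and -0.06 in PPs by time and -0.01 in hILOs), and with the replicate block the count of members called stayed the same in each comparison, while all genes called went from 1174 to 674 in hILOs and from 364 to 0 for slopes.

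Over all genes, leaving out 1 library gave 143 to 289 called in hILOs (1174 with all), 0 to 1504 slopes (364) and 10 to 42 for the first-hour difference (30). The unfiltered test called 330 in hILOs, 328 at 1 h (556 with the filter), 49 in WT from 1 to 3 h (81), 18 for the first-hour difference, 1109 for the 1 to 3 h difference (2264) and 0 slopes. Using only the compared groups gave 38 and 50, and DESeq2 147 and 87, in WT from 1 to 3 h and for the first-hour difference. Slopes called were 173 with a pseudocount of 1, 109 after median-of-ratios scaling, 725 with 0, 1 and 3 h, 3028 with 0 and 3 h, and 0 without WT libraries at 3 h. With 2 h in place of 3 h, 939 genes were called between genotypes, 870 in A5-KO, 0 in WT and 1 for the difference. Median-of-ratios scaling moved the split of higher and lower calls from 144 and 2281 to 511 and 1612 in A5-KO from 0 to 1 h, from 114 and 2117 to 300 and 1684 in A5-KO from 1 to 3 h, and from 166 and 2098 to 453 and 1594 for the 1 to 3 h difference. Reads limited *CXCL2*, *CXCL6*, *CXCL8* and *CCL2* in PPs to at most 40 per library.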

Other observations

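*ICAM1*, an adhesion molecule driven by NF-κB, changed order between genotypes over the Act D course. It was at 5.68 and 7.87 CPM in WT cells and 2.94 and 3.22 CPM in A5-KO cells at 0 h, at 4.24 and 5.26 CPM in WT cells and 9.31 and 7.34 CPM in A5-KO cells at 2 h, and at 6.29 and 4.74 CPM in WT cells and 3.04 and 3.00 CPM in A5-KO cells at 3 h. *ICAM1* was named for its 2 h values after they were seen. The CPM ratio of *CXCL5* to *CXCL1*, not corrected for length, in A5-KO PPs ran from 11.0 to 125 over the 8 libraries and in WT PPs from 1.12 to 9.11, the 2 highest WT values being those at 3 h (6.50 and 9.11). The value of 125 is that of A5-KO replicate 2 at 2 h and rests on 6 reads of *CXCL1*, whereas replicate 1 at 2 h was at 33.7.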
